A study of Homo sapiens with 4 samples.

Results

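The genes described here encode 10 chemokines that attract neutrophils, monocytes or other leukocytes, namely CXCL1, CXCL2, CXCL3, CXCL5, CXCL6, CXCL8, CXCL16, CCL2, CCL20 and CX3CL1. They were chosen by name, as chemokines found among the factors that senescent cells secrete, with earlier results of these data known. No threshold on a measured value was used. All 10 were among the 59050 genes counted, and all 10 were among the 16516 genes that passed the filter on low counts. The levels came from RCC4, an established human clear cell renal cell carcinoma line that lacks VHL. Both conditions were bulk lentiviral populations grown in tetracycline-free serum, with doxycycline at 100 ng/ml for 96 h to switch on a hairpin. In shPML the hairpin was directed against PML, and 1 such hairpin was sequenced, whereas shCtrl carried a scrambled hairpin. There were 2 experiments with independent lentiviral infections, numbered replicate 1 and replicate 2, and each gave 1 shCtrl and 1 shPML library. In bulk RNA, more RNA per cell and more cells of an expressing kind cannot be told apart.

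Chemokines are small secreted proteins that guide leukocytes along a gradient through receptors on the leukocyte surface. CXCL1, CXCL2, CXCL3, CXCL5, CXCL6 and CXCL8 carry a Glu-Leu-Arg motif before the CXC motif (ELR+ chemokines) and attract mainly neutrophils. They act through CXCR2, and CXCL6 and CXCL8 also through CXCR1. CCL2 attracts monocytes through CCR2, and CCL20 attracts CCR6-bearing lymphocytes and dendritic cells. CXCL16 and CX3CL1 are made as transmembrane proteins that hold cells bearing CXCR6 or CX3CR1, and the proteases ADAM10 and ADAM17 release their soluble forms. Renal carcinoma cells are a known source of ELR+ chemokines, whose transcription is classically driven by NF-kB and AP-1 downstream of IL-1 and TNF.

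The libraries held from 27781193 to 69870617 counted reads, and 3 counts corresponded to levels between 0.0418 and 0.109 CPM (the count divided by the TMM-normalized library size, per M reads). PML itself was at 93.1 CPM in shCtrl and 54.9 CPM in shPML of replicate 1, and at 136 CPM in shCtrl and 87.6 CPM in shPML of replicate 2. All 11 renal carcinoma markers passed the filter, and PAX8, a renal lineage factor, was between 302 and 427 CPM in all 4 libraries. The library labelled shPML replicate 2 stood apart in leukocyte transcripts. The summed level of 10 leukocyte markers was 2.27 and 2.58 CPM in the shCtrl libraries, 2.82 CPM in shPML replicate 1 and 177 CPM in shPML replicate 2. In that library the macrophage and monocyte genes LYZ and CD14 had 2349 and 1177 counts, against at most 4 counts in each other library. PTPRC, which encodes the pan-leukocyte antigen CD45, had 346 counts there and 0, 7 and 0 counts in shCtrl replicate 1, shPML replicate 1 and shCtrl replicate 2. ITGAM, another of the 10 markers, was higher in shPML in both replicates. It was at 1.07 and 2.40 CPM in shCtrl and shPML of replicate 1 and at 1.25 and 5.60 CPM in replicate 2. CD3E, MS4A1 and MPO, markers of T cells, B cells and neutrophil precursors, had 0 counts in every library. Myeloid cells make several of the chemokines described here, so the result for each of the 10 members is given within each replicate and without shPML replicate 2. The part of these transcripts in the chemokine results was not tested.

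**Figure D1:**
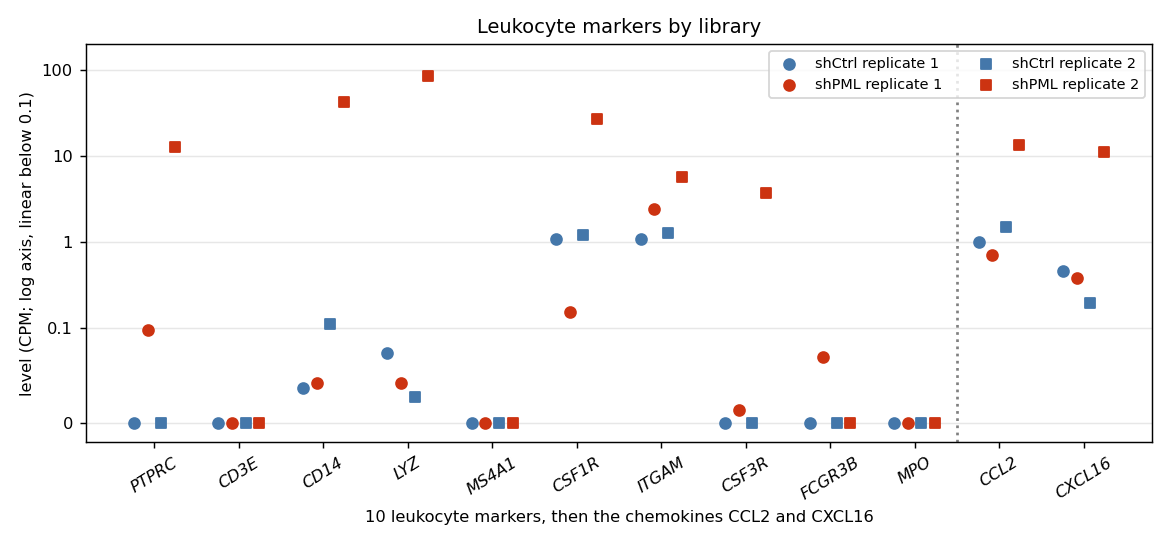
Levels in CPM (log axis, linear below 0.1) of the 10 leukocyte markers in the 4 libraries, with CCL2 and CXCL16 to the right of the dotted line. LYZ, CD14, PTPRC, CSF1R, CSF3R and ITGAM were highest in shPML replicate 2, as were CCL2 and CXCL16, and CD3E, MS4A1 and MPO were at 0 throughout.

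The 6 ELR+ genes lie in 1 cluster on chromosome 4 that spans 358.7 kb, from 73740541 to 74099195 in GRCh38. CCL20 lies on chromosome 2, CX3CL1 on chromosome 16, and CCL2 and CXCL16 are far apart on chromosome 17. The 110 bases upstream of the start that RefSeq gives are shown for the members in its promoter table, since the genes of the cluster were higher in shPML together and share a word of sequence there. The start of RefSeq falls inside the counted span of CXCL6 and CXCL8. Each stretch is written 5′ to 3′ on the strand of the gene, and capitals mark the words GGAANTTCC and TATAAA.
CXCL1 (GRCh38.p14, chr4:73869283-73869392, plus strand): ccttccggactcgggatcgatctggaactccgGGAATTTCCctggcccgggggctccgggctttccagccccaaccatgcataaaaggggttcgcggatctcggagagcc
CXCL2 (GRCh38.p14, chr4:74099196-74099305, minus strand): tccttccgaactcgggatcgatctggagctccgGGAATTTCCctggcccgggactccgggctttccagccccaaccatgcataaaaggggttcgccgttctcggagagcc
CXCL3 (GRCh38.p14, chr4:74038690-74038799, minus strand): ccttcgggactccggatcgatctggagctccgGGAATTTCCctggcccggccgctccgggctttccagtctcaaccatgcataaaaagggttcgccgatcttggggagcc
CXCL5 (GRCh38.p14, chr4:73998678-73998787, minus strand): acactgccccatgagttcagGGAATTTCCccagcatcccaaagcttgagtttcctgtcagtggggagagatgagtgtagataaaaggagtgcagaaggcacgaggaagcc
CXCL6 (GRCh38.p14, chr4:73836568-73836677, plus strand): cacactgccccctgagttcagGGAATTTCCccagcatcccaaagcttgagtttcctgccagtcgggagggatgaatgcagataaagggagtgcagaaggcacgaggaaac
CXCL8 (GRCh38.p14, chr4:73740459-73740568, plus strand): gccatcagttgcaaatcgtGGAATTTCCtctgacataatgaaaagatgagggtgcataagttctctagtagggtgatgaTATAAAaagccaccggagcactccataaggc
CCL20 (GRCh38.p14, chr2:227813732-227813841, plus strand): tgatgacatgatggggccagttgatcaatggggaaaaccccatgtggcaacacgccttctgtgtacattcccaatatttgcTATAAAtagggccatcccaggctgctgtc

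CCL2, CXCL16 and CX3CL1 had no entry. In the 250 bases upstream, searched on both strands, GGAANTTCC was found in 6 of the 7 members with an entry and in 0.826% of the 35114 promoters of the table. The 6 were the ELR+ genes, in which the first base of the word lay from -91 to -77 relative to the start. The stretches are shown because these related genes share the word, so its share among them is not a test of enrichment. The NF-kB consensus, searched as a single fixed pattern of 10 letters that overlaps that word, was found in 6 of the 7 members and in 9.96% of the promoters. CXCL8 had no exact match to that pattern, although it holds the word GGAATTTCC, and CCL20, which lacks GGAANTTCC, had a match. TGANTCA, a word of the AP-1 type, was found in CXCL8 alone among the 7 members and in 6.57% of the promoters. It lies upstream of the stretch shown. TATAAA was found in CXCL8 and CCL20 and in 10.7% of the promoters. Aligned without gaps, the stretches of CXCL1 and CXCL3 were identical at 90% of their 110 bases, and those of CXCL1 and CXCL8 at 32.7%. A match describes the letters and not a bound site, and a missing exact match does not show that a site is absent.

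Per kilobase of exon, the order of levels was the same in both shCtrl libraries. CXCL5 was highest, at 26.0 CPM per kb in shCtrl replicate 1 and 35.6 in replicate 2. CXCL8 followed at 9.64 and 12.3, CXCL1 at 5.12 and 9.07, CX3CL1 at 5.03 and 6.54, and CXCL2 at 4.24 and 5.38 CPM per kb. CXCL1, CX3CL1 and CXCL2 were neighbours whose ranges over the shCtrl libraries overlapped. CXCL6, CCL2, CXCL3, CXCL16 and CCL20 followed in this order, from 3.08 CPM per kb for CXCL6 down to 0.0330 for CCL20 in replicate 2. CXCL5 and CXCL8 were also the highest in both shPML libraries. CCL2 was the member that changed place most, from the seventh in both shCtrl libraries to the ninth in shPML replicate 1 and the fourth in shPML replicate 2. In 8 of the 10 members the level was higher in shCtrl replicate 2 than in shCtrl replicate 1, so that libraries of the same condition differed between experiments. The share of all genes tested with this direction was not determined.

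**Figure D2:**
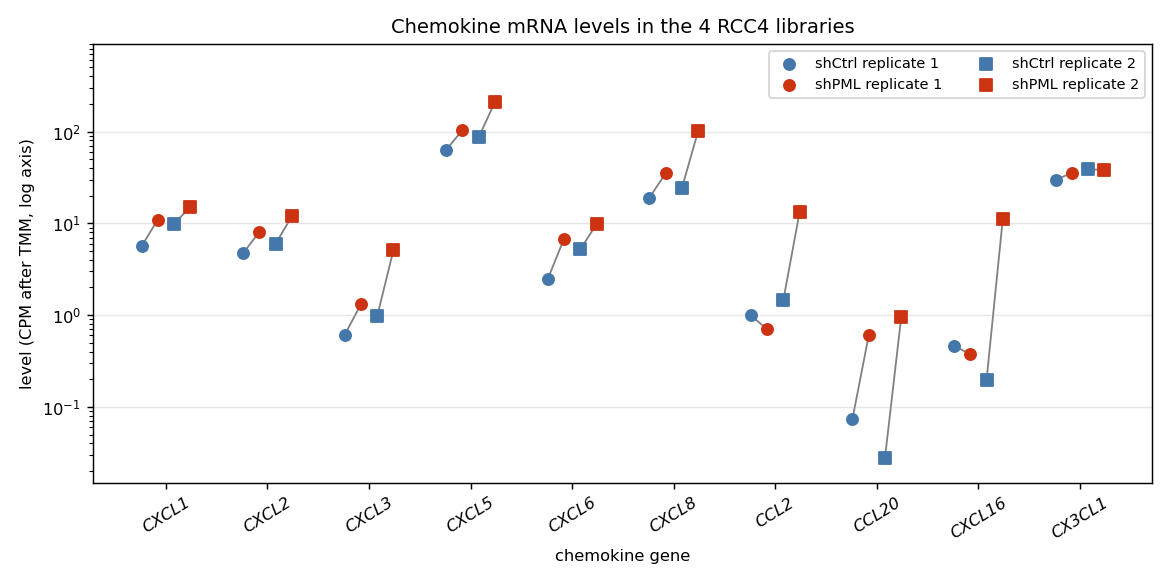
Level of each chemokine in CPM after TMM normalization (log axis) in the 4 libraries, with a line from shCtrl to shPML of the same replicate. The lines of the 6 ELR+ genes and CCL20 rise in both replicates, those of CCL2 and CXCL16 rise in replicate 2 only, and that of CX3CL1 is nearly flat.

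Within both experiments shPML had higher levels of the 6 ELR+ chemokines and of CCL20, while CX3CL1 changed little and CCL2 and CXCL16 were higher in shPML in replicate 2 alone. Of the 10 members, 8 were higher in shPML in replicate 1, 9 in replicate 2 and 7 in both. A log2 ratio above 0.5 was found in 7 members in replicate 1 and in 9 in replicate 2, against 14.7% and 20.3% of all genes tested. The 7 members with such a ratio in both replicates compare with 9.51% of all genes. In the same 7 members both shPML libraries were above both shCtrl libraries, as in 23.1% of all genes. CCL20 passed the filter through its level in shPML, so its difference was in part a condition of being tested. Genes are described as called where edgeR's quasi-likelihood test gave a Benjamini-Hochberg adjusted p, over all genes tested, under 0.05 and a log2 fold change beyond 0.5. Without the experiment as a block, 0 of the 10 members were called, with 0.0787% of all genes called higher, and 7 members were higher at an unadjusted p under 0.05, with 7.8% of all genes. With the experiment as a block, 9 members were called higher, against 8.57% of all genes called higher and 10.5% called lower. PML, the targeted gene, was not called without the block, at a log2 fold change of -0.69 (adjusted p = 0.320 in edgeR). With the block PML was called lower, at -0.70 (adjusted p = 4.19e-07 in edgeR). DESeq2 called 2 members without the block and 6 with it, against 3.5% and 6.67% of all genes called higher. CXCL5 and CXCL8 were the pair called without the block, and the 6 ELR+ genes were those called with it.

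The median log2 fold change of the 10 members was 1.38 without and 1.32 with the block, against 0.0095 and 0.0042 for all genes tested. Within replicate 1 the median log2 ratio was 0.83, and within replicate 2 it was 1.67. Without shPML replicate 2 the median fitted log2 fold change was 0.56. Every fit with a library left out had no block, so this one set shPML replicate 1 against the shCtrl libraries of both experiments. Most members were higher in shCtrl replicate 2 than in shCtrl replicate 1, as given above, so such values mix condition with experiment. The ratio within replicate 1 also leaves out shPML replicate 2 and stays within 1 experiment. The 6 ELR+ members had a median of 1.09 in both fits, of 0.93 and 1.14 within replicates 1 and 2, and of 0.66 without shPML replicate 2. The members' log2 ratio was larger in replicate 2 than in replicate 1 in 7 of 10, and the 95% counting intervals of both replicates did not overlap in 6. The shares of all genes tested were not determined for these counts, and such intervals narrow as counts rise. Counting intervals (Clopper-Pearson) cover counting error only, and with 1 library of each condition in an experiment the difference between experiments could not be tested.

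**Figure D3:**
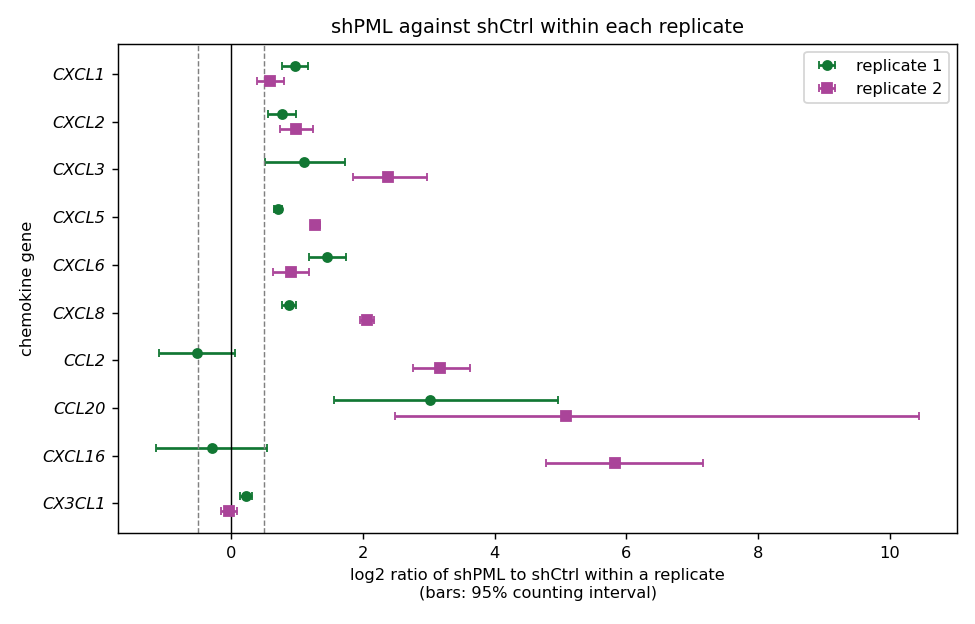
Log2 ratio of shPML to shCtrl within each replicate, with 95% counting intervals as bars and dashed lines at 0.5 on either side of 0. The ELR+ genes and CCL20 lie above 0.5 in both replicates, whereas CCL2 and CXCL16 lie below 0 in replicate 1 and above 3 in replicate 2.

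CXCL8, the prototype neutrophil attractant and the ligand shared by CXCR1 and CXCR2, was at 19.0 and 35.0 CPM in shCtrl and shPML of replicate 1. In replicate 2 it was at 24.1 and 101 CPM. The shPML libraries were both above the shCtrl libraries, and the ratio was much larger in replicate 2. It was 1.85-fold in replicate 1 (95% counting interval 1.72 to 1.99) and 4.17-fold in replicate 2 (3.87 to 4.51). The means were 21.6 ± 3.65 CPM in shCtrl and 67.9 ± 46.5 CPM in shPML (SD, n = 2). On the log2 scale the fitted change was 1.65 (SE, standard error, 0.50, adjusted p = 0.185 in edgeR) and with the block 1.47 (adjusted p = 1.69e-12 in edgeR). DESeq2 with the block gave 1.49 with a larger adjusted p (SE 0.56, adjusted p = 0.0352). In edgeR without the block and without shPML replicate 2 the value was 0.71.

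CXCL5, an ELR+ ligand of CXCR2, was the most abundant chemokine of the set. It was at 63.4 CPM in shCtrl and 104 CPM in shPML of replicate 1, and at 86.6 and 211 CPM in replicate 2. The groups did not overlap. The ratio was 1.64-fold in replicate 1 (95% counting interval 1.57 to 1.71) and 2.43-fold in replicate 2 (2.33 to 2.54). The means were 75.0 ± 16.4 CPM in shCtrl and 157 ± 75.5 CPM in shPML (SD, n = 2). Its log2 fold change was 1.07 (SE 0.37, adjusted p = 0.229 in edgeR), 1.00 with the block (adjusted p = 8.66e-11 in edgeR) and 0.48 without shPML replicate 2. CXCL5 shares exon sequence with a long noncoding gene on the opposite strand that had at most 89 counts in a library, and the strand setting of the counting was not stated.

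CXCL1, CXCL2 and CXCL3 are close paralogs that act through CXCR2. CXCL1 was at 5.62 and 11.0 CPM in shCtrl and shPML of replicate 1 and at 9.95 and 15.0 CPM in replicate 2, so that shPML replicate 1 was only slightly above shCtrl replicate 2. CXCL2 was at 4.73 and 8.08 CPM in replicate 1 and at 6.0 and 11.9 CPM in replicate 2. In CXCL1 and CXCL2 the ratio was of like size in both experiments, at 1.96-fold and 1.51-fold for CXCL1 and at 1.71-fold and 1.99-fold for CXCL2. The log2 fold change of CXCL1 was 0.74 (SE 0.34, adjusted p = 0.343 in edgeR) and 0.78 with the block (adjusted p = 0.000274), and it was 0.52 without shPML replicate 2. That of CXCL2 was 0.90 (SE 0.29, adjusted p = 0.206 in edgeR) and 0.88 with the block (adjusted p = 0.000443), and it was 0.60 without that library.

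CXCL3, the scarcest ELR+ transcript, had 33 and 94 counts in shCtrl and shPML of replicate 1 and 35 and 140 counts in replicate 2. These corresponded to 0.610, 1.31, 0.972 and 5.09 CPM. The ratio was 2.15-fold in replicate 1 (95% counting interval 1.43 to 3.30) and 5.24-fold in replicate 2 (3.59 to 7.82), and the intervals did not overlap. Its log2 fold change of 2.01 (SE 0.74, adjusted p = 0.250 in edgeR) became 1.75 with the block (adjusted p = 0.00102) and 0.75 without shPML replicate 2. No stretch of 100 bases, the read length, was shared between the main transcript of a member and a transcript of another chemokine gene.

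CXCL6, an ELR+ chemokine that binds both CXCR1 and CXCR2, had its larger ratio in replicate 1. It was at 2.48 and 6.79 CPM in shCtrl and shPML of replicate 1 and at 5.22 and 9.78 CPM in replicate 2. Both shPML libraries were above both shCtrl libraries. The ratio was 2.74-fold (95% counting interval 2.26 to 3.35) and 1.87-fold (1.55 to 2.27) in replicates 1 and 2. The fitted log2 change was 1.11 (SE 0.43, adjusted p = 0.269 in edgeR), 1.18 with the block (adjusted p = 5.75e-05) and 0.84 without shPML replicate 2.

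The ELR+ transcripts summed to 95.8 and 166 CPM in shCtrl and shPML of replicate 1 and to 133 and 353 CPM in replicate 2. CXCL5 supplied most of these reads, between 65.2% and 66.2% in shCtrl, 62.5% in shPML replicate 1 and 59.6% in shPML replicate 2. CXCL8 supplied 19.8% and 18.2% in the shCtrl libraries, 21.1% in shPML replicate 1 and 28.5% in shPML replicate 2. Thus shPML replicate 2 had the largest shares of CXCL8 and CXCL3 and the smallest share of CXCL5. CXCL3 supplied 1.44% there and between 0.636% and 0.790% in the other libraries. CXCL1, by contrast, supplied 4.25% in shPML replicate 2 and between 5.86% and 7.48% in the others.

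CCL20, the ligand of CCR6, had the largest relative difference that was found in both experiments, at very low counts. It had 4 and 43 counts in shCtrl and shPML of replicate 1 and 1 and 26 counts in replicate 2. In CPM these were 0.0739, 0.600, 0.0278 and 0.946. The ratio was 8.12-fold in replicate 1 (95% counting interval 2.95 to 31.1) and 34.0-fold in replicate 2 (5.59 to 1396), and the intervals overlapped. The log2 fold change was 3.78 (SE 0.85, adjusted p = 0.113 in edgeR), the smallest adjusted p of the members without the block, and 3.72 with the block (adjusted p = 0.00147 in edgeR). It was 3.44 without shPML replicate 2. DESeq2 gave CCL20 no adjusted p.

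CCL2, the main monocyte attractant, was lower in shPML in replicate 1 and higher in replicate 2. It was at 0.998 CPM in shCtrl and 0.697 CPM in shPML of replicate 1, and at 1.47 and 13.3 CPM in replicate 2. The library shPML replicate 2 held 366 counts and the other libraries between 50 and 54. The ratio was 0.699 in replicate 1 (95% counting interval 0.466 to 1.05) and 9.04 in replicate 2 (6.76 to 12.3). The log2 fold change of 2.49 (SE 1.25, adjusted p = 0.386 in edgeR) became -0.81 without shPML replicate 2. With the block it was 1.45 and called by edgeR (adjusted p = 0.00740), but not by DESeq2 (adjusted p = 0.549). The higher level was found in the library with the leukocyte transcripts alone.

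CXCL16, the transmembrane ligand of CXCR6, had 25 and 27 counts in shCtrl and shPML of replicate 1 and 7 and 305 counts in replicate 2. In CPM these were 0.462, 0.377, 0.194 and 11.1. The ratio was 0.815 in replicate 1 (95% counting interval 0.456 to 1.47) and 57.0 in replicate 2 (27.4 to 143), so that shPML replicate 2 alone was high. Its log2 fold change of 4.06 (SE 1.55, adjusted p = 0.262 in edgeR) was 0.18 without that library. With the block it was 2.67, called by edgeR (adjusted p = 0.000866) and not by DESeq2 (adjusted p = 0.345). Exons of CXCL16 overlap those of MED11 and ZMYND15 on the opposite strand. MED11 had 369 counts in shPML replicate 2 and between 560 and 1308 in the other libraries, and ZMYND15 had 49 counts there and at most 3 in the others.

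CX3CL1, the transmembrane ligand of CX3CR1, was the member with no call in any of the fits with and without the block. It was at 30.0 and 35.2 CPM in shCtrl and shPML of replicate 1 and at 39.0 and 38.1 CPM in replicate 2. The groups overlapped, with means of 34.5 ± 6.36 CPM in shCtrl and 36.6 ± 2.10 CPM in shPML (SD, n = 2). The ratio was 1.17 in replicate 1 (95% counting interval 1.10 to 1.25) and 0.977 in replicate 2 (0.901 to 1.06). The fitted log2 change was 0.09 (SE 0.19, adjusted p = 0.881 in edgeR) and 0.10 with the block (adjusted p = 0.600), and it was 0.039 without shPML replicate 2. CX3CL1 had at least 1048 counts in every library, so its intervals were among the narrowest of the members.

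**Figure D4:**
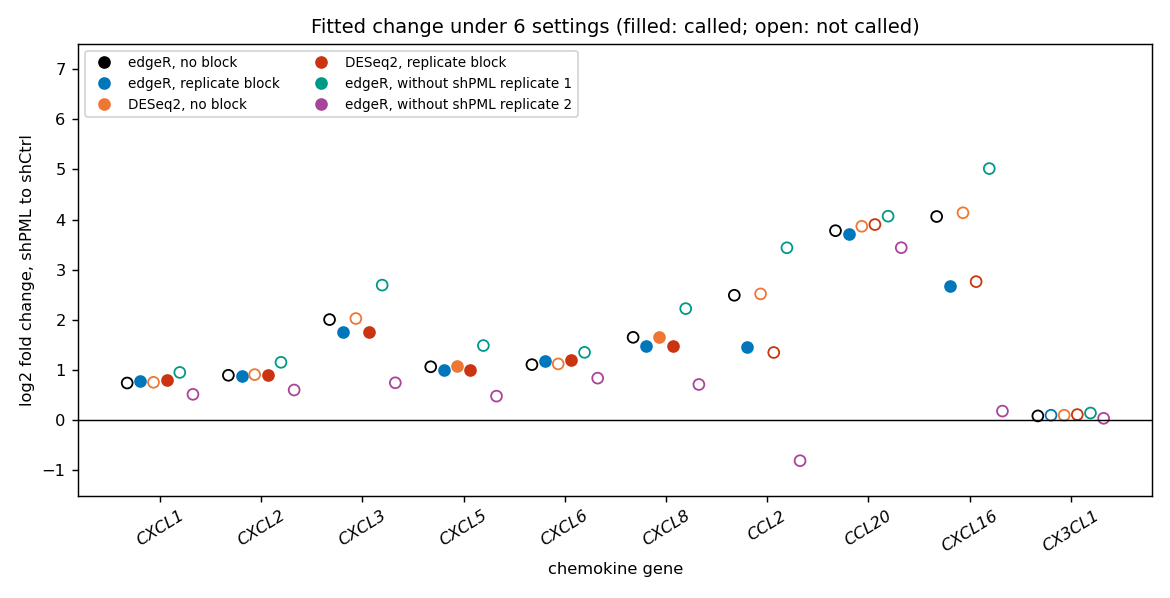
Log2 fold change of shPML to shCtrl for each chemokine under 6 settings, filled where the gene was called and open where it was not (CCL20 had no adjusted p in DESeq2). CXCL16 and CCL2 move from 4.06 and 2.49 to 0.18 and -0.81 without shPML replicate 2, whereas CCL20 stays above 3.

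The neighbourhood of the ELR+ cluster was compared with its members. Within 500 kb of the cluster 35 genes were counted, of which 13 passed the filter, the 6 ELR+ genes and 7 others. Of these 7, only EREG, which encodes the EGFR ligand epiregulin, was called with the block. Of all genes tested, 8.57% were called higher and 10.5% lower. EREG had 10 and 43 counts in shCtrl and shPML of replicate 1 and 4 and 381 counts in replicate 2. Its log2 fold change was 4.44 with the block (adjusted p = 4.38e-09 in edgeR). Without the block it went from 5.53 to 1.99 when shPML replicate 2 was left out. EREG, like CCL20, passed the filter through its shPML libraries. ANKRD17, RASSF6, MTHFD2L and AREG were not called, and their fitted log2 fold changes with the block were 0.03, 0.32, -0.32 and -0.49. The log2 ratio of RASSF6 was -0.22 in replicate 1 and 0.93 in replicate 2. The noncoding gene antisense to CXCL5 was not called either, with log2 ratios of 0.61 and -2.03. ALB, the albumin gene, had 172 and 271 counts in shCtrl and shPML of replicate 1 and 0 in both libraries of replicate 2. The platelet chemokine genes PF4 and PF4V1 in the same region had 0 counts in every library, and PPBP had 371 counts in shPML replicate 2 and at most 2 in the others.

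**Figure D5:**
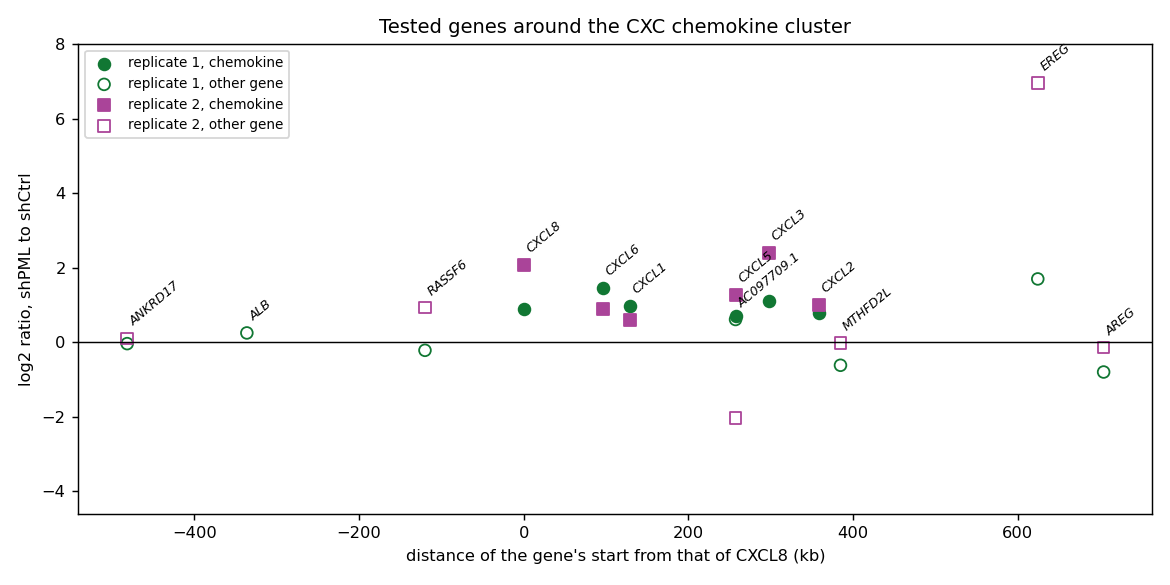
Log2 ratio of shPML to shCtrl within each replicate for the 13 tested genes around the ELR+ cluster, against the distance of each gene's start from that of CXCL8 in kb. The 6 chemokine genes (filled) lie above 0 in both replicates, as does EREG, while MTHFD2L and AREG lie below 0 in both. RASSF6, ANKRD17 and the noncoding gene antisense to CXCL5 lie on opposite sides of 0 in the replicates, and ALB is drawn for replicate 1 only.

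Of 37 other chemokine ligand genes, 36 were counted, 14 had 0 counts in every library and 2 passed the filter. CCL28, a mucosal chemokine, was at 4.40 and 8.04 CPM in shCtrl and shPML of replicate 1 and at 4.64 and 8.55 CPM in replicate 2. The ratio was thus nearly the same in both experiments, with a log2 fold change of 0.88 (adjusted p = 0.00145 in edgeR with the block, 0.141 without) and 0.84 without shPML replicate 2. CCL5, an attractant of T cells and monocytes, was at 0.905, 1.66 and 0.333 CPM in shCtrl replicate 1, shPML replicate 1 and shCtrl replicate 2, and at 13.8 CPM in shPML replicate 2. Its log2 fold change was 2.88 with the block (adjusted p = 1.48e-06 in edgeR), and DESeq2 did not call it with the block (adjusted p = 0.157). Without the block the log2 fold change went from 3.59 to 1.41 when shPML replicate 2 was left out. A further 9 ligands, among them CCL4, CCL7 and CCL8, exceeded 3 counts in shPML replicate 2 alone. CCL3 had 315 counts in that library and at most 5 in the others, and CCL8 had 132 counts there and 0 in the others.

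Receptors of these chemokines were scarce. Of 23 receptor genes, 4 passed the filter (CXCR5, CCR7, CCR10 and ACKR3). Of these, edgeR called 0 with or without the block, with 0 at an unadjusted p under 0.05 without it. Over all genes tested 8.57% were called higher and 10.5% lower with the block. CXCR1, CXCR2, CCR2, CCR6 and CXCR6, the receptors of the ELR+ chemokines, CCL2, CCL20 and CXCL16, had 0 counts in every library, and CX3CR1 had 1 count in shPML replicate 2. A count of 0 allows up to 3 counts, or 0.109 CPM in the shallowest library. CCR1 had 204 counts in shPML replicate 2 and at most 2 in the others.

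Among 9 genes that release, bind or trim chemokines, 1 was called higher and 2 were called lower with the block. Over all genes tested 8.57% were called higher and 10.5% lower. ADAM10 and ADAM17, the proteases that release CXCL16 and CX3CL1, were at 117 and 82.8 CPM in shCtrl replicate 1 and were not called, with log2 fold changes of 0.30 and 0.24. RHBDF1, which helps to bring ADAM17 to the cell surface, was called higher at 0.53 (adjusted p = 0.000866 in edgeR with the block). Without the block its log2 fold change went from 0.57 to 0.18 when shPML replicate 2 was left out. DPP4, a peptidase that trims the N terminus of chemokines, fell from 104 to 40.5 CPM in replicate 1 and from 72.0 to 36.5 CPM in replicate 2 (log2 fold change -1.18, adjusted p = 2.69e-12 in edgeR with the block). SDC4, a heparan sulphate proteoglycan, fell from 318 to 185 CPM and from 370 to 177 CPM (log2 fold change -0.92 with the block). Both were lower in shPML by a like amount without shPML replicate 2, at -1.11 and -0.88.

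Of 22 genes that induce chemokine transcription, 21 were tested. With the block 5 were called higher and 1 lower, against 8.57% and 10.5% of all genes tested. The transcripts of NFKB1 and RELA, subunits of NF-kB, were at 107 and 109 CPM in shCtrl replicate 1 and were not called (log2 fold changes of -0.12 and 0.12 with the block). IL1B, which encodes IL-1 beta, had 0, 6 and 14 counts in shCtrl replicate 1, shPML replicate 1 and shCtrl replicate 2, and 908 counts in shPML replicate 2. Its log2 fold change was 6.38 with the block. Without the block it went from 6.58 to -1.10 when that library was left out. That last value set 6 counts in shPML replicate 1 against 0 and 14 counts in the shCtrl libraries. FOS, a subunit of AP-1, was at 22.3 and 42.4 CPM in shCtrl and shPML of replicate 1 and at 10.1 and 105 CPM in replicate 2, with a log2 fold change of 2.09 (adjusted p = 5.04e-12 in edgeR with the block). DESeq2 with the block did not call FOS (adjusted p = 0.119), and its log2 fold change without the block went from 2.18 to 1.39 when shPML replicate 2 was left out. MYD88, the adaptor of the IL-1 receptor, was called higher at 2.21, with log2 ratios of 0.94 and 3.80 in replicates 1 and 2. The transcription factors CEBPB and EGR1, named after their values were seen, were called higher at 0.91 and 1.07. Their log2 ratios were 0.78 and 1.03 for CEBPB and 0.69 and 1.46 for EGR1. Without the block, leaving out shPML replicate 2 took MYD88 from 2.28 to 1.5, CEBPB from 0.97 to -0.07 and EGR1 from 1.18 to 0.48. CEBPB was at 15.1 CPM in shCtrl replicate 1 and 40.2 CPM in shCtrl replicate 2. IL1R1, the IL-1 receptor, fell from 20.5 to 10.0 CPM in replicate 1 and from 27.5 to 11.1 CPM in replicate 2 (log2 fold change -1.17, adjusted p = 1.10e-09 in edgeR with the block). TNF, at most 69 counts in a library, was not called, at -0.81 with the block. Its log2 ratios were -0.93 and -0.67 in replicates 1 and 2. The median log2 fold change of the 21 genes was 0.15 with the block.

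Chemokine mRNAs are short-lived, and 15 genes that regulate their decay were all tested. With the block 1 was called higher and 2 lower, against 8.57% and 10.5% of all genes tested. The median log2 fold change of the 15 genes was -0.04. ZFP36, which encodes the decay factor tristetraprolin, was at 9.03 and 14.9 CPM in shCtrl and shPML of replicate 1. In replicate 2 it was at 11.9 and 34.6 CPM. Its log2 fold change was 1.13 with the block (adjusted p = 1.46e-08 in edgeR). Without the block it went from 1.24 to 0.52 when shPML replicate 2 was left out. MAPKAPK2, the kinase that restrains tristetraprolin, fell from 161 to 93.4 CPM and from 202 to 109 CPM (log2 fold change -0.84 with the block). TIA1, an RNA-binding repressor of translation, fell by 0.61 on the log2 scale with the block.

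Of 18 other myeloid attractants, growth factors and adhesion genes, 10 were tested. With the block 1 was called higher and 2 lower, against 8.57% and 10.5% of all genes tested. ICAM1, the adhesion molecule that leukocyte integrins bind, rose from 266 to 427 CPM in replicate 1 and from 280 to 443 CPM in replicate 2 (log2 fold change 0.67, adjusted p = 5.31e-08 in edgeR with the block, 0.106 without). Its log2 ratio was 0.68 and 0.66 in replicates 1 and 2, and its log2 fold change was 0.66 without shPML replicate 2. CSF1, CSF2 and IL6 were not called, at 0.08, -0.24 and 0.32. SAA1, an acute phase protein that attracts phagocytes, fell from 7.11 to 2.62 CPM and from 5.39 to 2.55 CPM (log2 fold change -1.27 with the block), and HMGB1, a chromatin protein that acts as an alarmin outside the cell, fell by 0.64 on the log2 scale. The neutrophil and monocyte genes S100A8 and S100A9 had 121 and 312 counts in shPML replicate 2 and at most 1 in the others.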

How the data were processed

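RNA of RCC4 cells was measured in 4 libraries. Per the study's methods, stranded mRNA libraries were sequenced from a single end, trimmed with Trimmomatic 0.39, mapped to GRCh38 with STAR and summed per gene by featureCounts 1.6.4. The number of the Gencode release and the strand setting are not given in the sources used here. The values are raw counts per gene, which the authors deposited without normalization together with the exon length of each gene. The record carries a correction of swapped labels for a pair of samples, and its present labels were followed. Columns without a number were taken as replicate 1.

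The fits used R 4.3.3, edgeR 4.0.16 (filterByExpr, TMM, quasi-likelihood test, Benjamini-Hochberg adjustment over 16516 genes) and DESeq2 1.42.0, and in Python 3.11.15 with scipy 1.17.1. The fit had no block, and a fit with the experiment as a block was made beside it. Replicate numbers were read as the 2 experiments of the methods, and deviations from the group means had a correlation of 0.546 across genes. Of the variation of log2 levels around each gene's own mean, summed over genes, the experiment held 44.9% and the condition 41.8%. Alternatives were DESeq2, RLE normalization, other filters and thresholds, and each library left out. The smallest two-sided p of an exact permutation test at this size is 0.333, so none was used. CPM is the count divided by the TMM-scaled library size. The fits were tested on simulated data. Besides the 10 members, the text names PML, the genes of the gene lists (other ligands, receptors, release and binding, inducers, mRNA decay, other attractants, and renal, leukocyte, endothelial and fibroblast markers) called in a fit, up to 3 in each direction by size with the block, tested genes within 500 kb of the cluster, and defining markers; other genes were named after their values were seen. The members and lists were chosen with earlier results of these data known. Promoter sequences came from RefSeq.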

Additional observations from a re-analysis of the deposited data

Results flagged for a closer look

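Among the 10 members and the list genes called in a fit and named by size, the direction of the difference was opposite in the replicates for 4. Other genes of the lists and the neighbourhood that were not called, such as RASSF6, also changed sign between replicates and are not counted here. The log2 ratio of shPML to shCtrl in replicate 2 minus that in replicate 1 was 6.13 for CXCL16 (-0.29 in replicate 1 and 5.83 in replicate 2). It was 3.69 for CCL2 (-0.52 and 3.18), and -0.26 for CX3CL1 (0.23 and -0.03). For the leukocyte marker CSF1R it was 7.30 (-2.83 and 4.48). These differences were not tested, since each experiment had 1 library of each condition.

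The 10 leukocyte markers, which entered no comparison of the chemokines, summed to 177 CPM in shPML replicate 2, against 2.82 CPM in shPML replicate 1 and 2.27 and 2.58 CPM in the shCtrl libraries.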

How the results depend on the processing

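No member was called with RLE normalization or with at least 10 counts in every library (8 members tested). With no filter on low counts 7 members were called higher, against 891 of the 30093 genes tested in that setting. With the experiment as a block edgeR called 9 members, and DESeq2 called 2 without the replicate block and 6 with it. Over all genes, the 13 higher and 55 lower calls became 1415 and 1735 with the replicate block, 578 and 894 in DESeq2, 1102 and 1384 in DESeq2 with the block, 891 and 946 with no filter, and 53 and 144 with at least 10 counts. With RLE in edgeR both counts were 0, with 2967 genes at an unadjusted p under 0.05 and a smallest adjusted p of 0.0501. With 1 library left out they ranged from 1 to 11 and from 0 to 29. The log2 fold change of CCL2 was -0.81 without shPML replicate 2 and -0.52 within replicate 1. That of CXCL16 was -0.29 within replicate 1, and that of CX3CL1 was -0.091 without shCtrl replicate 1 and -0.033 within replicate 2. The within-replicate ratios were added after seeing the data. With each library left out the log2 fold change ranged from 0.39 to 1.21 for CXCL1, 0.60 to 1.15 for CXCL2, 0.75 to 2.69 for CXCL3, 0.48 to 1.49 for CXCL5, 0.66 to 1.74 for CXCL6, 0.71 to 2.23 for CXCL8, 3.33 to 4.65 for CCL20, -0.81 to 3.44 for CCL2, 0.18 to 5.02 for CXCL16 and -0.091 to 0.29 for CX3CL1. A lone library was assumed to vary like the other group. Depth limits CCL20, CXCL16, CCL2 and CXCL3 most.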

Other observations

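By a rule chosen after values were seen (at least 100 counts in 1 library and at most 3 in each other), 56 genes were particular to shPML replicate 2 and 0 to each of the other libraries. They held 12670 counts, 0.0456% of that library. None of them was among the genes tested, which follows from the rule, since the filter needs counts in more than 1 library. LYZ, CD14 and PTPRC, with 2349, 1177 and 346 counts in that library, fell outside the rule, so the share leaves them out. CSF1R and IL1B, with 731 and 908 counts in that library, were among the genes tested. ADAMDEC1, CD163, SIGLEC1 and MPEG1, genes of macrophages, had 778, 638, 578 and 494 counts there. HLA-DRA, an MHC class II gene, had 395 counts. The 5 endothelial markers summed to 4.36 CPM in this library and to at most 0.389 CPM in the others. PECAM1, which myeloid cells also express and which is 1 of the 56 genes, made up 4.11 CPM of this sum, while CDH5, KDR and EMCN had 0 counts there. The 5 fibroblast markers summed to between 11.7 and 25.8 CPM in all libraries, with 14.4 CPM in shPML replicate 2. Among them PDGFRB fell from 3.44 to 2.43 CPM in replicate 1 and from 9.53 to 2.40 CPM in replicate 2. Its log2 fold change was -1.22 with the block (adjusted p = 0.000848 in edgeR).

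Of the 11 renal carcinoma markers, 2 were called higher with the block, against 8.57% of all genes tested. NDUFA4L2 was at 260 and 445 CPM in shCtrl and shPML of replicate 1 and at 371 and 779 CPM in replicate 2 (log2 fold change 0.92, adjusted p = 9.25e-12 in edgeR with the block). Without the block its log2 fold change of 0.96 became 0.51 when shPML replicate 2 was left out. EGLN3 was at 15.4 and 25.1 CPM, and at 20.0 and 29.4 CPM (0.63). VEGFA was not called, at 0.15. CA9, at 0.49 (adjusted p = 0.000644 in edgeR with the block), fell short of the log2 threshold of 0.5. DESeq2 with the block called CA9 higher, at 0.51 (adjusted p = 0.00857).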
